A study of Mus musculus with 8 samples.

Results

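The 2 ends of a serum-to-2i switch were compared in E14 mouse embryonic stem cells (ESCs): 2 libraries taken 32 hr after the switch against 2 libraries taken 4 hr after it. These are 4 of the 8 RNA-seq libraries of the course and were chosen by their time label alone. E14 is a single established ESC line of the 129/Ola strain, grown here without feeders and with LIF in serum medium before the switch. At each time, 1 library came from cells in 2i, a serum-free N2B27-type medium (NDiff 227) with LIF, the MEK inhibitor PD0325901 and the GSK3 inhibitor CHIR99021, and 1 from cells in the same medium with 17 µM vitamin C (2i+vitC). All 4 cultures had therefore come from serum and had both inhibitors, and no serum library was analysed here, so that "change" below means change between 4 and 32 hr in 2i. The paired values given for a time are always those of the 2i library and then of the 2i+vitC library.

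Serum ESCs are exposed to autocrine FGF4, which signals through the MEK-ERK kinases and primes the cells for differentiation. PD0325901 blocks that step, while CHIR99021 relieves the repression that TCF7L1 exerts on naive pluripotency genes through stabilized beta-catenin, and LIF acts through STAT3. Removing serum also takes away growth factors, lipids carried by lipoproteins and activators of the actin-dependent factors SRF and YAP, so the switch reaches pathways outside pluripotency as well.

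Levels are given as CPM, a gene's deposited count scaled to the library's total and by edgeR's TMM factor. The totals were 17403697 and 13157570 counts at 4 hr and 13605342 and 11893512 counts at 32 hr. The test was edgeR's quasi-likelihood test of 32 hr against 4 hr with treatment as a block, fitted on all 8 libraries. It took in the 14931 genes that reached 1 CPM in 2 or more libraries, and a gene was called at a Benjamini-Hochberg adjusted p under 0.05. Each combination of time and treatment is 1 library, so the error of this test measures how far 2i and 2i+vitC failed to run in parallel over time. A gene has 3 residual degrees of freedom, and edgeR draws its spread toward that of the other genes, on which the p-values also rest. The error holds no spread between replicate cultures. The 4 hr libraries were sequenced on lane 8 and the 32 hr libraries on lane 7, so lane and time cannot be told apart in this comparison. The share of counts on Lars2, Gm23935 and 1 further feature grouped with them also differed between the sides, at 0.028% and 0.011% at 4 hr against 0.564% and 4.21% at 32 hr, and its part in the results below was not tested beyond a fit with that share as a covariate. Of the genes tested, 25.3% were called (3785 genes). With lane as a term and hours as a straight line the number was 639, and with a Lars2 share covariate, which was added once the data had been seen, it was 159. Every fit called "with lane as a term" below has hours as a straight line. A call lost in it can therefore come from a course that is not straight as well as from lane, and which applied was not tested. Without the 2i library at 32 hr the number was 1403, without the 2i+vitC library at 32 hr 1548 and without the 2i+vitC library at 4 hr 1780.

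Between 4 and 32 hr, 2021 genes rose (13.5% of those tested) and 1764 fell (11.8%). The median change of all genes was 0.00 on the log2 scale. Of the called genes, 966 rose and 560 fell by more than 2-fold, and 254 rose and 184 fell by more than 4-fold. The smallest change that was called was 0.38 and the median change among called genes was 0.86, in either direction, on the log2 scale. In 3784 of the called genes the 2i pair and the 2i+vitC pair of libraries moved the same way, and in 1 they did not. This agreement is largely built into the call, whose error is the departure between these pairs, and it is no separate support. The 4 hr and 32 hr values did not overlap in 3772 of the called genes and in 65.8% of all genes tested, so that a lack of overlap between 2 and 2 libraries says little on its own. The log2 ratio of 32 hr to 4 hr in 2i and the same ratio in 2i+vitC rest on different libraries that share their lanes, and over all 14931 genes they had a Pearson r of 0.653 and a Spearman rho of 0.641, given as a description across genes, which are not independent.

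**Figure D1:**
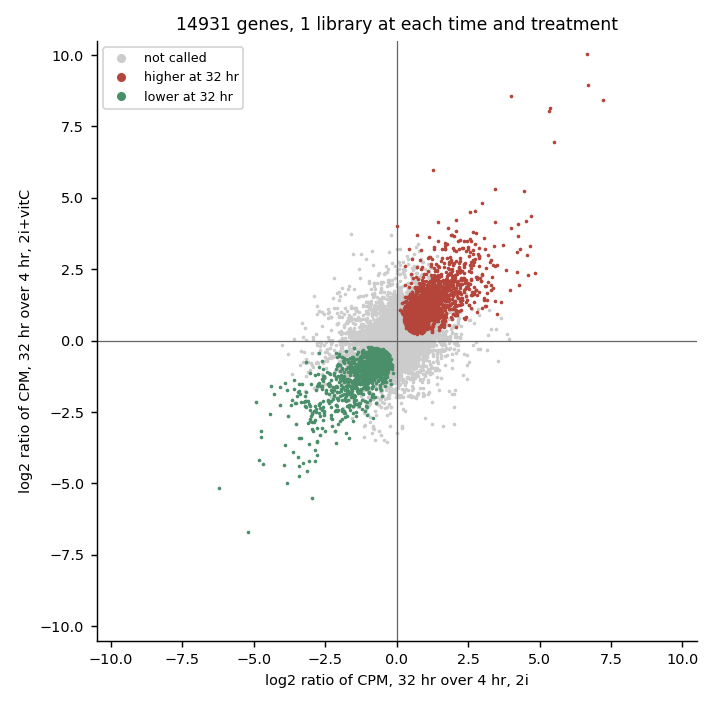
Log2 ratio of CPM at 32 hr over 4 hr (prior count 2) in 2i (x axis) and in 2i+vitC (y axis) for the 14931 genes tested, 1 library at each time and treatment. Called genes are coloured, with the 2021 that rose in the upper right and the 1764 that fell in the lower left, and uncalled genes are grey around 0.

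Of 40 gene lists, those with the largest share of members that rose were cholesterol synthesis and uptake (19 of 26 tested), retinoic acid genes (10 of 15), fatty acid synthesis (10 of 18), lysosome (16 of 30) and naive pluripotency (9 of 18). Those with the largest share that fell, among lists with over 10 members tested, were core pluripotency (7 of 13), ribosome biogenesis (14 of 30), SRF and YAP targets (10 of 22) and epithelial genes (7 of 16). The nuclear genes of oxidative phosphorylation had 6 rises and 4 falls among 78, and the cytosolic ribosomal proteins had 2 rises and 10 falls among 81. These are 7.69% and 5.13% of the nuclear oxidative phosphorylation genes, and 2.47% and 12.3% of the ribosomal protein genes, against 13.5% and 11.8% of all genes. The medians of both lists (-0.02 and -0.13) turned to 0.03 and 0.0035 with lane as a term.

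**Figure D2:**
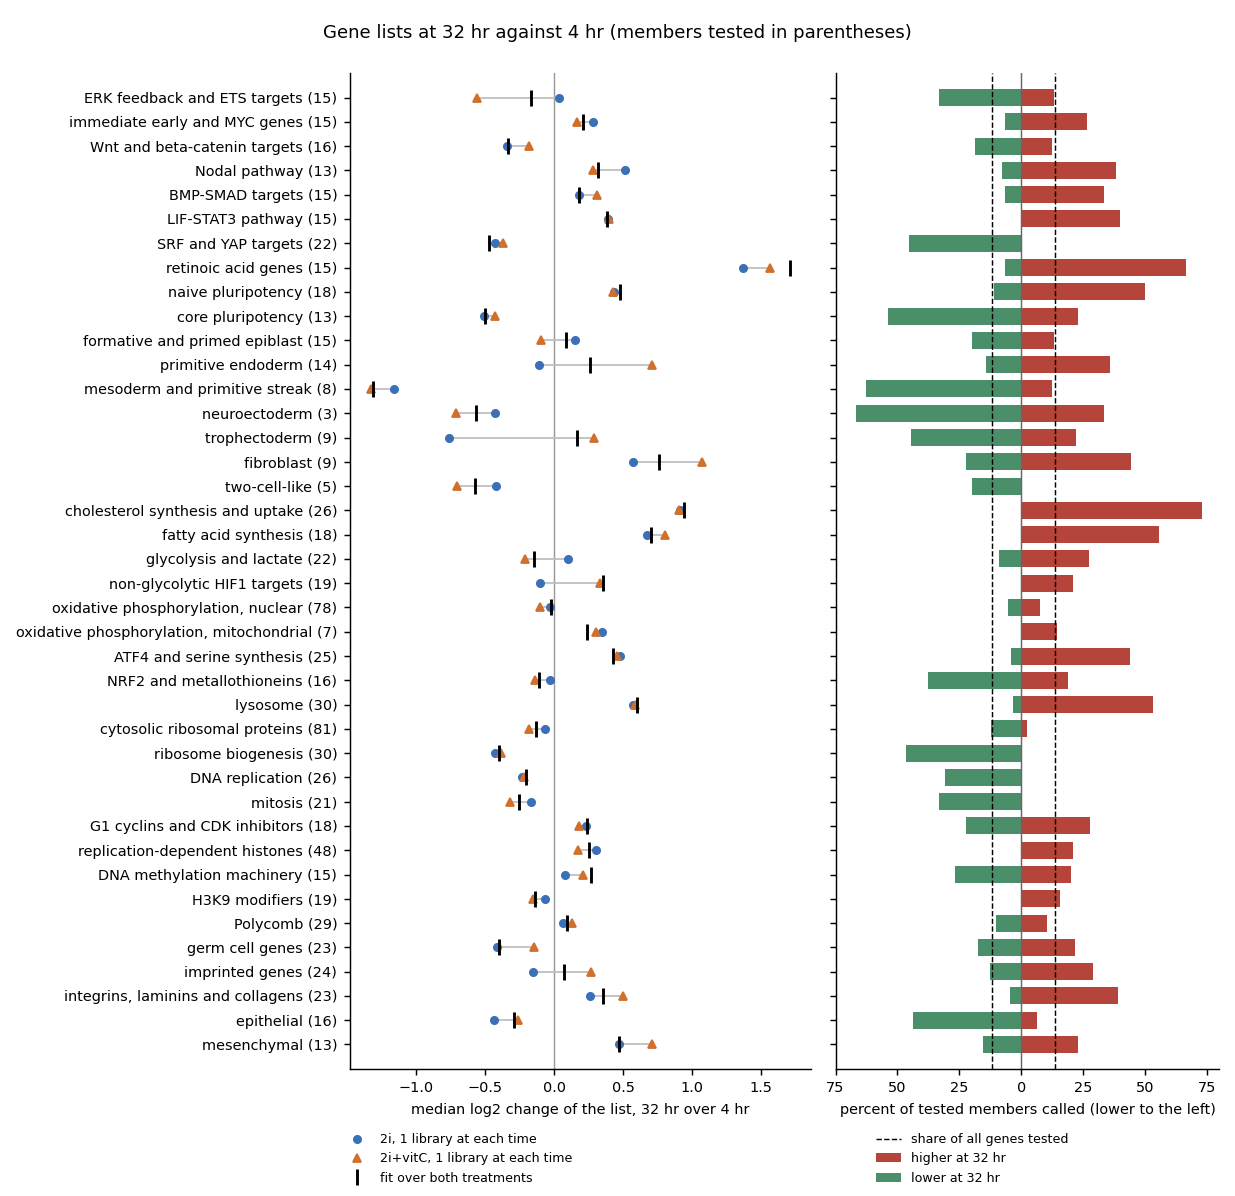
Left, median log2 change of 40 gene lists between 4 and 32 hr in the 2i libraries (circles), the 2i+vitC libraries (triangles) and the fit over both (black ticks), with the number of members tested in parentheses. Right, percent of tested members called higher (to the right) or lower (to the left), with dashed lines at the 13.5% and 11.8% of all genes, which the bars of the sterol, fatty acid, lysosome and retinoic acid lists pass on the right and those of the SRF and YAP and ribosome biogenesis lists pass on the left.

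Among the 10 largest rises of called protein-coding genes with a mean of 5 CPM or more, 3 were of the retinoic acid list, Crabp1, Crabp2 and Stra8. Crabp1, which encodes a cytoplasmic retinoic acid binding protein, went from 11.6 and 7.99 CPM to 307 and 170 CPM (log2 fold change 4.58 ± 0.20 SE, edgeR adjusted p = 1.83e-07). Igfbp5, a secreted binder of insulin-like growth factors, went from 0.99 and 0.897 to 26.2 and 18.9 CPM (4.63 ± 0.55, adjusted p = 0.000155). Fgfbp3, a secreted FGF binding protein, went from 1.81 and 1.34 to 37.4 and 25.1 CPM, and Ptn, the growth factor pleiotrophin, from 2.39 and 2.99 to 47.1 and 26.9 CPM. In these 4 genes every 32 hr value was above both 4 hr values. Zfp503, Thsd4 and Zfp521 completed the largest rises outside the retinoic acid list, with log2 fold changes of 4.20, 4.02 and 3.34. Lars2 had the largest rise within these limits (6.27 ± 1.19), but its 4 values were 35.6, 29.6, 1426 and 7858 CPM and it was at 154.6 and 15011 CPM in the 2i and 2i+vitC libraries of 16 hr. Its log2 fold change with lane as a term was 7.89, and it was not called there (edgeR adjusted p = 0.2).

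The largest falls included a lipoxygenase, an ETS factor and a de novo methylation cofactor. Alox15, an arachidonate lipoxygenase, fell from 17.5 and 20.6 to 0.0743 and 0.417 CPM, which is 577 counts against 6 over both libraries of each time and a ratio of 0.0125 (exact 95% counting interval 0.00456 to 0.0273). Etv4, an ETS transcription factor induced by ERK signalling, fell from 54.8 and 59.4 to 1.34 and 0.417 CPM (-6.04 ± 0.38, edgeR adjusted p = 2.03e-06). Dnmt3l, which stimulates the de novo DNA methyltransferases, fell from 124 and 120 to 11.3 and 4.34 CPM (-4.08 ± 0.28, adjusted p = 3.64e-06). The values at 32 hr were below both values at 4 hr in all of them. Enpp2, the enzyme autotaxin that makes lysophosphatidic acid, went from 356 counts at 4 hr to 11 at 32 hr (ratio 0.0371, interval 0.0184 to 0.0672), and Apln, the peptide ligand apelin, from 13.4 and 16.5 to 0.743 and 1.17 CPM. Pllp, Tgm3, Zmat4 and Ccno fell by 4.70, 4.50, 3.73 and 3.58 on the log2 scale. Apart from Lars2, these largest rises and falls were called in each of 14 alternative fits. In a further fit with the Lars2 share as a covariate, 9 of the 20 were called, Crabp1, Fgfbp3, Zfp503, Thsd4, Crabp2, Stra8, Alox15, Etv4 and Dnmt3l.

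**Figure D3:**
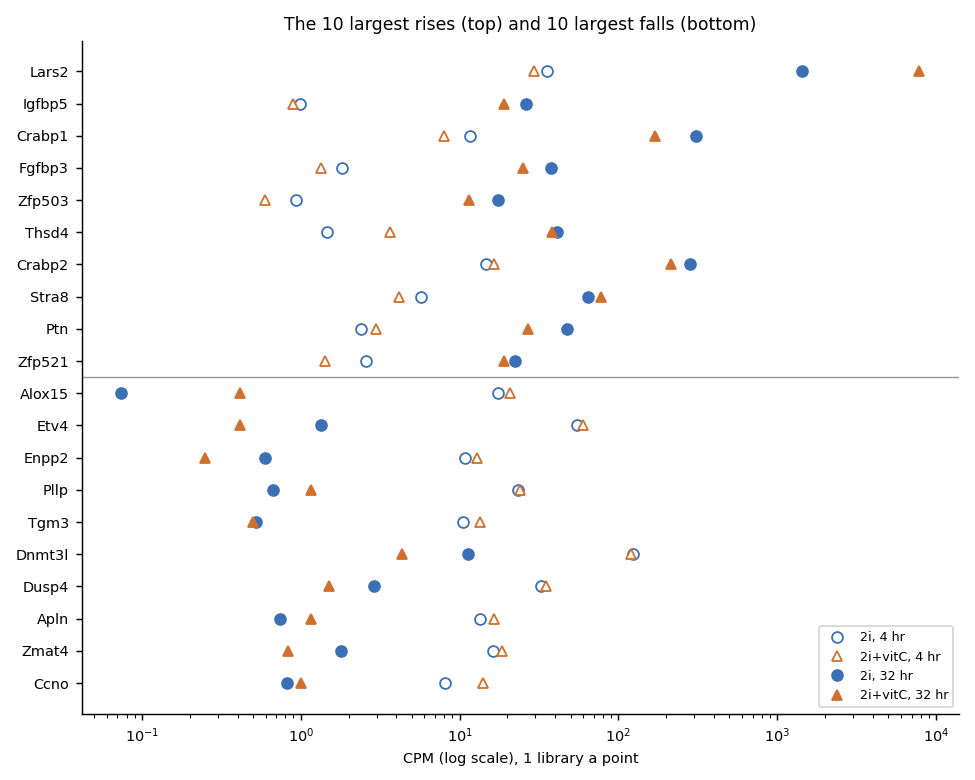
CPM on a log axis of 20 called protein-coding genes with a mean of 5 CPM or more, 1 library a point: the 10 that rose most (upper rows) and the 10 that fell most (lower rows). Open symbols are 4 hr and filled symbols 32 hr, circles 2i and triangles 2i+vitC, and the open and filled symbols of every gene stand apart.

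The MAPK phosphatases and ETS factors of this feedback loop are switched on by ERK and in turn restrain it. Of 15 members of the ERK feedback and ETS list tested, 5 fell and 2 rose, with a median log2 change of -0.17 (0.04 in 2i and -0.56 in 2i+vitC). The falls were 33.3% and the rises 13.3% of the list, against 11.8% and 13.5% of all genes tested. Besides Etv4, Dusp4, a nuclear phosphatase of ERK, fell from 32.5 and 34.9 to 2.9 and 1.5 CPM (-4.01 ± 0.35, edgeR adjusted p = 2.27e-05). Dusp6, the cytoplasmic ERK phosphatase, went from 6.88 and 7.1 to 3.86 and 2.67 CPM (-1.15 ± 0.39, adjusted p = 0.0459), and the call was lost with lane as a term and in 3 of the 4 fits without a library. Etv1 and Dusp5 also fell, by 2.46 and 1.01. Spry2, an inhibitor of receptor tyrosine kinase signalling, rose by 0.69 and Rasa3, a Ras GTPase-activating protein, by 1.02. Etv1, Dusp5, Spry2 and Rasa3 lost their calls with lane as a term, where only Etv4 and Dusp4 of this list were called. Spry4 and Egr1 stayed under the filter with at most 13 counts in any of the 4 libraries.

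Among 15 tested members of the immediate early and MYC list 4 rose, Ier2, Junb, Jund and Myc, 1 fell and 10 were not called. The list had 1 rise and no fall with lane as a term, and 1 rise and 2 falls with a correction for GC content and length. Myc, a transcription factor of growth genes, went from 2.62 and 1.05 CPM to 11 and 10.8 CPM (2.51 ± 0.45, edgeR adjusted p = 0.00204), a call lost without the 2i library at 32 hr. Odc1, the first enzyme of polyamine synthesis and a known MYC target, fell from 202 and 226 to 78.3 and 93.8 CPM (-1.31 ± 0.20). Fos was not called (-0.13). Junb, Jund and Odc1 lost their calls with lane as a term.

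Stabilized beta-catenin raises TCF target genes. In the Wnt list 2 of 16 tested members rose and 3 fell (median -0.33). These are 12.5% and 18.8% of it, against 13.5% and 11.8% of all genes tested. Axin2, the general feedback target, was at 49.2 and 51.3 CPM and then at 39.6 and 60.4 CPM, with overlapping values (edgeR adjusted p = 0.845). Cdx1, a caudal homeobox gene that responds to Wnt and retinoic acid, rose from 5.88 and 3.06 to 38.3 and 29.1 CPM (2.92 ± 0.23, adjusted p = 9.89e-06). Ccnd1, the gene of cyclin D1, fell from 275 and 299 to 94.5 and 61.5 CPM (-1.93 ± 0.19). T (brachyury) and Sp5 also fell, by 1.18 and 0.57, whereas Tcf7 rose by 0.72 with an adjusted p of 0.0493. Cdx1, T and Tcf7 lost their calls with lane as a term. Among the 4 fits without a library, Sp5 and Tcf7 lost theirs in 3 and T in 1.

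In the LIF-STAT3 list 6 of 15 members rose and none fell (median 0.39, and 0.39 and 0.40 in 2i and 2i+vitC). Pim1, a kinase gene induced by STAT3, rose from 22.7 and 21.5 to 79.7 and 85.2 CPM (1.90 ± 0.15, edgeR adjusted p = 1.15e-05). Socs3, the feedback inhibitor of the LIF receptor, went from 61.8 and 85.2 to 120 and 128 CPM, Bcl3 from 6.58 and 5.15 to 17.8 and 28.4 CPM, and Jak2, the kinase, from 41.9 and 41.2 to 83.5 and 73.7 CPM, all 3 called and without overlap. Stat3 itself was at 102 and 105 CPM and then at 127 and 114 CPM (adjusted p = 0.243). Socs3 and Bcl3 lost their calls without the 2i library at 32 hr and with lane as a term, where the list had 2 rises.

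In the Nodal pathway 5 of 13 tested members rose (38.5%) and 1 fell (7.69%). Lefty1, a secreted Nodal inhibitor and target, rose from 124 and 80 to 294 and 208 CPM (1.31 ± 0.18, edgeR adjusted p = 0.000345). Nodal itself fell by 0.91, while Furin, a protease that processes Nodal, rose by 1.05. Lefty2 overlapped between the times and was not called (0.45). In the BMP-SMAD list 5 of 15 rose (33.3%) and 1 fell (6.67%). Id1 fell from 53 and 46.2 to 17 and 13.1 CPM (-1.72 ± 0.19), Id3 rose from 26.2 and 15.5 to 34.1 and 30.1 CPM (0.65 ± 0.19, adjusted p = 0.0288) and Id2 was not called (0.18). The inhibitory SMADs Smad6 and Smad7 rose by 1.50 and 1.28. With lane as a term Lefty1, Nodal, Furin, Id3, Smad6 and Smad7 lost their calls, and the BMP-SMAD list had no rise. Id3 also lost its call in 3 of the 4 fits without a library and Smad7 in 1. Nodal lost its call in at least 3 of those 4 fits and with no treatment term.

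Genes that serum induces through SRF and YAP fell or were not called. SRF drives cytoskeletal genes when actin polymerizes, and YAP drives Ccn1 and Ccn2. Of 22 members 10 fell and none rose (median -0.47). Myl9, a smooth muscle myosin light chain, fell from 26 and 21.4 to 3.86 and 4.59 CPM (-2.48 ± 0.29, edgeR adjusted p = 0.000141). Tagln (transgelin) fell from 277 and 193 to 66 and 81 CPM, Cnn1 from 23.5 and 20.6 to 7.65 and 5.17 CPM and Cnn2 (calponins) from 295 and 273 to 138 and 128 CPM. The 32 hr values of these genes lay below all 4 hr values. Ccn1 fell from 103 and 141 to 75.3 and 51.5 CPM (-0.98 ± 0.23), while Ccn2 (-0.54) and Srf (-0.02) were not called. Within lane 8, the 24 hr libraries were already lower than those of 4 hr by 3.23 for Myl9 and 2.32 for Tagln. Tagln, Cnn2 and Ccn1 lost their calls with lane as a term, where 3 of the 22 were called, and Ccn1 also lost its call in 2 of the 4 fits without a library. Those 4 fits called 5 to 7 falls, fewest without the 2i+vitC library at 32 hr.

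The retinoic acid list had the largest median change of all lists at 1.71 (1.37 in 2i and 1.56 in 2i+vitC), with 10 of 15 members higher and 1 lower. With lane as a term 4 of the 15 were called higher and 1 lower (median 1.57). With the Lars2 share as a covariate 4 were called higher and none lower (median 1.68). Crabp1, Crabp2 and Stra8 were called in both of these fits. Crabp2, which carries retinoic acid to its nuclear receptors, rose from 14.7 and 16.5 to 283 and 213 CPM (3.97 ± 0.23, edgeR adjusted p = 2.03e-06). Stra8, a gene first found by its induction with retinoic acid and needed in germ cells for meiosis, rose from 5.71 and 4.18 to 64.1 and 77.2 CPM (3.79 ± 0.24). Stra6, the receptor that takes up retinol, Rarb, a retinoic acid receptor that is also a direct target, and the homeobox genes Hoxb1 and Meis1 rose by 3.33, 2.64, 1.84 and 1.71. Rara and Dhrs3 rose by 0.83 and 0.95, and Rarg fell from 68.6 and 68.8 to 55.2 and 47.6 CPM (-0.42). Cyp26a1, the enzyme that breaks retinoic acid down and one of its most inducible targets, was at 1.86 and 1.42 CPM and then at 4.38 and 1.67 CPM, with overlapping values and an adjusted p of 0.173. Crabp1, Crabp2 and Stra8 were also higher at 32 hr than at 16 hr within lane 7, by 4.25, 2.18 and 1.48, with adjusted p-values of 4.6e-07, 0.00055 and 0.0095. In that same-lane comparison 0.583% of all genes were called (87 genes), and it shares the 32 hr libraries with the main one.

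Of 18 naive pluripotency genes, 9 rose and 2 fell (median 0.48, and 0.43 in each treatment). Klf5 rose from 6.64 and 7.62 to 21.8 and 21.9 CPM (1.64 ± 0.36, edgeR adjusted p = 0.00605), Dppa3 (Stella, which protects maternal methylation in the zygote) from 8.97 and 8.97 to 18.9 and 28.9 CPM (1.36 ± 0.24) and Esrrb from 149 and 158 to 267 and 214 CPM (0.65 ± 0.15). Tfcp2l1, Prdm14, Tbx3, Klf2, Dppa5a and Zfp57 made up the other rises, between 0.56 and 0.87, and of these only Dppa5a overlapped between the times. Nanog was at 395 and 437 CPM at 4 hr and 405 and 348 CPM at 32 hr, which overlap (adjusted p = 0.489), and Klf4 was not called (0.26). Nr0b1 and Zfp42 (Rex1) fell, Zfp42 from 173 and 165 to 128 and 79.9 CPM (-0.75 ± 0.17). Klf5, Nr0b1 and Esrrb lost their calls with lane as a term and in 2, 2 and 3 of the 4 fits without a library. The list had 2 rises with lane as a term, 3 without the 2i library at 32 hr or the 2i+vitC library at 4 hr, and none with the Lars2 share as a covariate.

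The core list went down more often than up, with 7 falls and 3 rises among 13 tested (median -0.50). With lane as a term the list had 1 fall and 1 rise (median -0.26). With the Lars2 share as a covariate it had 1 fall and no rise (median -0.20). Pou5f1 (Oct4) fell from 505 and 465 to 338 and 346 CPM (-0.50 ± 0.13, edgeR adjusted p = 0.0163), whereas Sox2, its partner, rose from 145 and 120 to 326 and 263 CPM (1.15 ± 0.15, adjusted p = 0.00024). Lin28a, which blocks let-7 maturation, fell from 684 and 754 to 340 and 303 CPM (-1.17 ± 0.14) and Utf1 from 19 and 14.4 to 2.08 and 1.84 CPM (-3.08 ± 0.31). The values of the 2 times did not overlap in any of these 4 genes. Pou5f1 lost its call in all 4 fits without a library and with lane as a term, and Utf1 with lane as a term, while Sox2 and Lin28a kept theirs in the 14 alternatives and lost them with the Lars2 share as a covariate (adjusted p = 0.122 and 0.132). With Sall4 at 149 and 187 CPM and then 102 and 174 CPM (adjusted p = 0.147), the ESC label held at both times for Pou5f1, Sox2, Sall4, Nanog, Zfp42 and Lin28a, all of which were at 79.9 CPM or more in each of the 4 libraries. Utf1 was the low marker at 32 hr, and its log2 change from 4 to 24 hr within lane 8 was -3.11.

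Of 15 genes of the formative and primed epiblast, 2 rose and 3 fell, and the median of 0.09 turned to -0.12 with a correction for GC content and length. The rises were 13.3% and the falls 20% of the list, against 13.5% and 11.8% of all genes tested. The falls were Dnmt3l, Dnmt3b and Krt18. Otx2, an early driver of the exit from naive pluripotency, was at 2.21 and 3.06 CPM and then 1.19 and 2.25 CPM (edgeR adjusted p = 0.438), and Fgf5 went from 12 and 20 counts to 0 and 1 counts, under the filter. Sox3 rose by 1.13.

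Markers of other lineages were examined next. In a bulk sample, fewer cells of a type and less RNA per cell cannot be told apart. Of the mesoderm and primitive streak genes 5 of 8 tested fell and 1 rose, and their summed level went from 58.6 and 55.7 CPM to 22.9 and 22.1 CPM. Cdx2, a trophectoderm and posterior mesoderm gene, fell from 8.91 and 11 to 1.04 and 1.08 CPM (-3.22 ± 0.39, edgeR adjusted p = 0.000168), and Wnt3 from 15.7 and 15.7 to 4.38 and 4.67 CPM. The organizer gene Gsc rose from 0.408 and 0.299 to 1.56 and 3.25 CPM. Primitive endoderm genes had 5 rises and 2 falls among 14, with a sum between 1047 and 1223 CPM in the 4 libraries. Its defining factors Gata6 and Gata4 stayed between 0.598 and 2.51 CPM in all 4 and were not called, while Pdgfra rose from 2.85 and 2.32 to 6.76 and 10.3 CPM, Sox17 by 2.89, and Cubn and Amn fell (-3.83 and -3.87). Neither Cubn nor Amn was called with lane as a term or without the 2i library of either time. With a 5 CPM filter the list had no fall.

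Neuroectoderm was represented by 3 tested genes of 10. Nes fell by 0.56, a call lost in all 4 fits without a library and with lane as a term. Tubb3 fell from 174 and 149 to 51.1 and 58.8 CPM (-1.55 ± 0.17), while Pax3, picked out after its values were seen, went from 0.175 and 0 CPM to 7.13 and 5.92 CPM. Neurog1, Neurog2, Olig2, Six3 and Hes5 had at most 7 counts in each of the 4 libraries. The trophectoderm list had 2 rises and 4 falls among 9, with a median of 0.17 that was below 0 in several other fits, and the keratin genes Krt8 and Krt18 fell from 742 and 538 to 329 and 261 CPM and from 762 and 507 to 371 and 260 CPM. Elf5 had at most 10 counts. Fibroblast markers had 4 rises and 2 falls among 9, with the sum going from 130.3 and 116.5 to 304.1 and 439.3 CPM. Col1a2, a chain of type I collagen, rose from 49.8 and 39.4 to 172 and 228 CPM (2.14 ± 0.18, edgeR adjusted p = 2.01e-05) and Postn from 0.99 and 0.971 to 4.16 and 14.6 CPM, whereas Thy1 and S100a4 fell by 1.80 and 2.31, Lum had at most 4 counts and Fap was at 0 counts in all 4 libraries. Two-cell-like genes had 1 fall, Eif1a, lost in 3 of the 4 fits without a library and with lane as a term, and no rise among 5, and Zscan4d stayed between 2 and 3.73 CPM. The summed level of the trophectoderm list went from 1594 and 1127 to 803 and 654 CPM, and that of the neuroectoderm list from 446.5 and 394.8 to 261 and 215 CPM. The part of any such cells in the other results was not tested.

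Cells without serum lipoproteins rely on their own synthesis of sterols and unsaturated fatty acids, and the factors SREBP2 and SREBP1 are known to switch on these enzymes when cell sterol runs low. Of 26 cholesterol genes 19 rose and none fell (median 0.94, and 0.91 and 0.90 in 2i and 2i+vitC). Dhcr7, the last step to cholesterol, rose from 19.2 and 15.2 to 73.9 and 83.6 CPM (2.17 ± 0.21, edgeR adjusted p = 3.83e-05). Cyp51, which demethylates lanosterol, rose from 131 and 128 to 342 and 287 CPM (1.27 ± 0.14), and Nsdhl from 23.1 and 27.7 to 64.4 and 74.3 CPM (1.45 ± 0.15). The gene of SREBP2, Srebf2, rose by 1.23 and Insig1, which holds SREBP back in the endoplasmic reticulum, by 0.95. The genes not called included Hsd17b7 (-0.52), Abca1 (-0.42), Idi1 (-0.26), Sc5d and Ebp.

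In the fatty acid list 10 of 18 rose and none fell (median 0.70). Scd1, the main desaturase that makes oleate, rose from 166 and 157 to 812 and 852 CPM (2.36 ± 0.16, edgeR adjusted p = 3.47e-06). Fads2 and Fads1, the desaturases of polyunsaturated fatty acids, rose from 25.1 and 24.2 to 127 and 112 CPM (2.28 ± 0.15) and from 55 and 59.8 to 194 and 215 CPM (1.83 ± 0.13). Acss2, which makes acetyl-CoA from acetate, rose from 7.63 and 8.89 to 22.9 and 33 CPM (1.75 ± 0.23), and Fasn, the fatty acid synthase, from 513 and 515 to 841 and 1075 CPM (0.88 ± 0.15). In all of the called lipid genes given with CPM values here, each 32 hr value was above each 4 hr value. Within lane 8 the medians of the 2 lists from 4 to 24 hr were 0.78 and 0.61, and within lane 7 those from 16 to 32 hr were -0.13 and -0.13. The 24 hr comparison shares the 4 hr libraries and called 20.5% of all genes. With lane as a term and hours as a straight line, 0 of the 26 cholesterol genes and 2 of the 18 fatty acid genes, Fads1 and Fads2, were called, with medians of 0.66 and 0.54. With the Lars2 share as a covariate 5 and 3 were called.

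**Figure D4:**
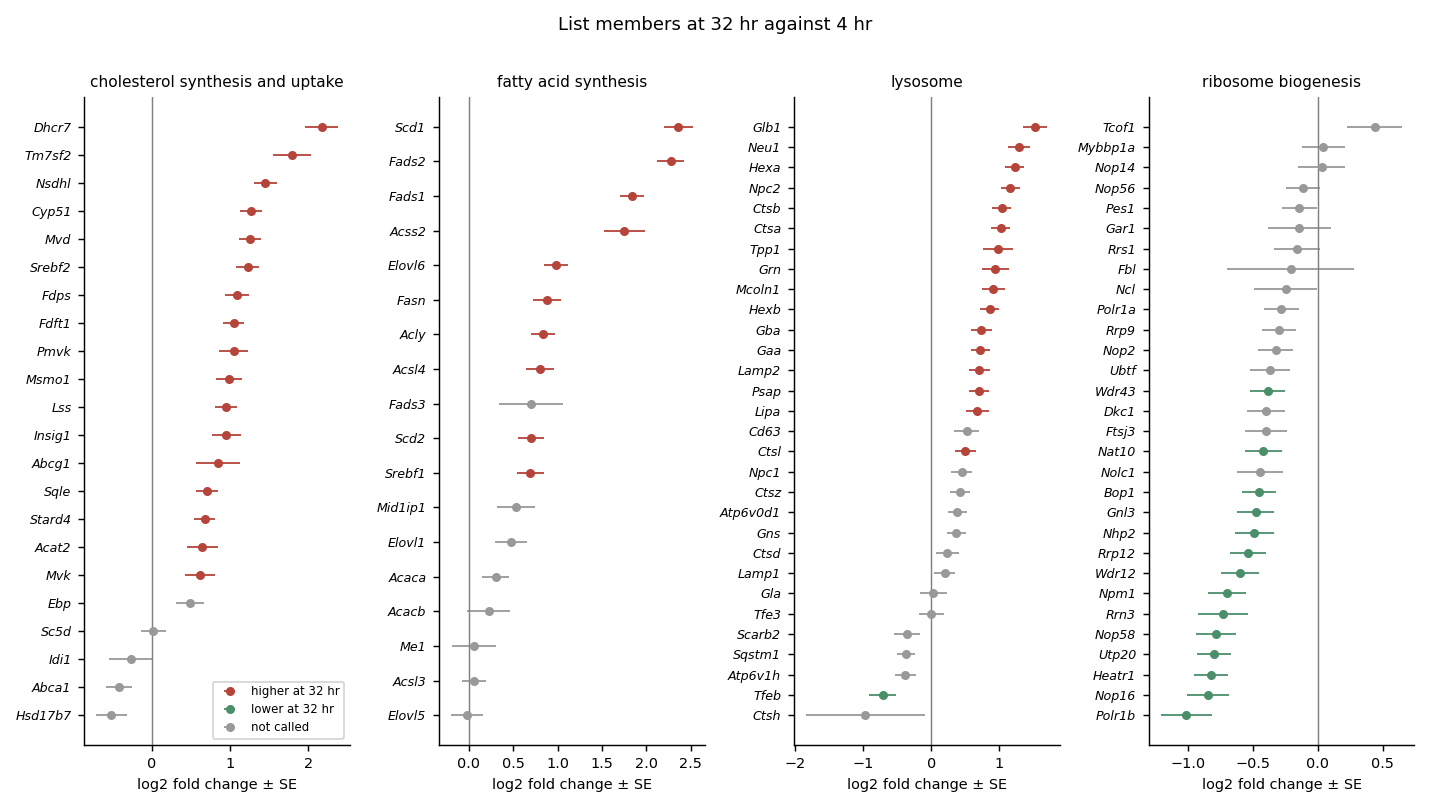
Log2 fold change of 32 hr against 4 hr with its standard error (edgeR fit over 8 libraries) for tested members of 4 lists, of which a few sterol genes are not drawn. The called members of the sterol, fatty acid and lysosome lists lie to the right of 0 apart from Tfeb, and those of the ribosome biogenesis list lie to the left.

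Of 30 lysosomal genes tested, 16 rose and 1 fell (median 0.60, and 0.57 and 0.59 in the 2 treatments). Glb1, the lysosomal beta-galactosidase, rose from 19.8 and 25.4 to 64.4 and 66 CPM (1.53 ± 0.18, edgeR adjusted p = 0.000132). Hexa, a hexosaminidase subunit, rose from 57.8 and 58.6 to 143 and 130 CPM (1.22 ± 0.14), Neu1, a sialidase, from 27.9 and 22.6 to 61 and 61.7 CPM (1.29 ± 0.16) and Npc2, which binds cholesterol in the lysosome, from 104 and 97.5 to 224 and 226 CPM (1.16 ± 0.13). The groups did not overlap in any of these. Lamp1, the major membrane protein, was at 415 and 450 and then at 470 and 520 CPM (adjusted p = 0.369). The 1 fall was Tfeb, the gene of a transcription factor of lysosomal genes, from 31.9 and 26.6 to 17.7 and 17.8 CPM (-0.72 ± 0.19, adjusted p = 0.0186). With lane as a term 5 of the 30 were called higher and none lower. Tfeb thus lost its call there, and it also lost it in all 4 fits without a library.

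TFEB and its relatives bind E-boxes of the type CACGTG near the start of lysosomal genes. Of the 30 genes, 23 had an entry in a RefSeq table of promoters (build GRCm38.p6), and 8 of these 23 (34.8%) held CACGTG, which reads the same on both strands, in the 250 bases before an annotated start, against 6.86% of all 27025 genes of that table. Of the 13 lysosomal genes that rose and had an entry, 5 held it, and of the other 10, 3 did. The sterol regulatory element TCACNCCAC was found on neither strand in the 17 cholesterol and 15 fatty acid genes with an entry, against 1.22% of all genes, which says only that these letters are not in this window. Other letters searched on both strands in the same windows were TGACTCA, the AP-1 site (3 of 23 lysosomal genes against 5.16% of all), CCGGAAGT, an ETS site (0 of 23 against 3.23%), ACGTG, which lies within CACGTG, a longer sterol regulatory element, a direct repeat retinoic acid element and an SRF element. ACGTG was in 10 of the 23 lysosomal genes against 18.5% of all, and the other 3 were in none of them, against 0.226%, 0.0111% and 0.074% of all. CACGTG was also in 5 of the 17 cholesterol genes with an entry. CACGTG was picked for display after the counts of all 8 motifs were seen, and a match is a description of the letters and not of binding. The stretches before the annotated start of 3 genes that rose are shown, in lower case with CACGTG in capitals. The stretches are from RefSeq on the plus strand of GRCm38.p6. Each ends at the last base before the gene's first annotated base in GENCODE M21. They lie at chr8:3500269-3500456 for Mcoln1, a lysosomal calcium channel gene, chr11:119267713-119267886 for Gaa, the gene of acid alpha-glucosidase, and chr9:114400828-114401075 for Glb1.
Mcoln1: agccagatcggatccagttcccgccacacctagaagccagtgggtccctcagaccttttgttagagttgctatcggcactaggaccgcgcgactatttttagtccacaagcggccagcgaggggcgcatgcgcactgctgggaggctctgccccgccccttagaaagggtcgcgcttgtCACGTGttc
Gaa: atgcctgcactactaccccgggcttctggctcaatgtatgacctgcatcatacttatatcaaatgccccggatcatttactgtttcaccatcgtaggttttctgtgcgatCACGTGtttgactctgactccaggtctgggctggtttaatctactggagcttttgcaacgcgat
Glb1: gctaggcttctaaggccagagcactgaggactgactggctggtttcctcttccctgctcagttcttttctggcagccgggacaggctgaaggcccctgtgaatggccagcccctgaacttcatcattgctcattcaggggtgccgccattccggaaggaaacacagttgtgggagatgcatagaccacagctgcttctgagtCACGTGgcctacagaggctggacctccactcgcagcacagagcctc

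The E-box starts 9 bases before the annotated first base of Mcoln1, 64 before that of Gaa and 46 before that of Glb1. Mcoln1 rose from 29 and 26.4 to 48.2 and 55.8 CPM (log2 fold change 0.91 ± 0.17, edgeR adjusted p = 0.00215) and Gaa from 42.9 and 54 to 74.4 and 84.5 CPM (0.72 ± 0.14, adjusted p = 0.00308). Ctsd, Gla and Lamp1, which also hold the motif, were not called.

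Amino acid and stress genes under ATF4 were another list with more rises than falls, 11 and 1 of 25 (median 0.43). ATF4 is the transcription factor that cells make more of when amino acids run short. Atf4 rose from 299 and 311 to 789 and 501 CPM (1.05 ± 0.17, edgeR adjusted p = 0.00109), Nupr1 from 6.29 and 3.88 to 39.3 and 23.7 CPM (2.62 ± 0.27), Gpt2, an alanine transaminase, from 45.1 and 51.9 to 156 and 118 CPM (1.48 ± 0.18) and Trib3 from 20.9 and 25.7 to 58.7 and 44.9 CPM (1.14 ± 0.20). The enzymes of serine synthesis itself, Phgdh (0.30), Psat1 (0.01) and Psph (0.19), were not called. The 1 fall was Slc7a3, a transporter of cationic amino acids. With lane as a term 7 of the 25 were called higher and none lower. With the Lars2 share as a covariate 3 were called higher and none lower. Atf4 and Nupr1 lost their calls with that covariate (edgeR adjusted p = 0.0509 and 0.101), while Gpt2 and Trib3 kept theirs.

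In the NRF2 list 6 of 16 fell and 3 rose. Hmox1, the heme oxygenase, fell from 297 and 286 to 88 and 95.3 CPM (-1.67 ± 0.16, edgeR adjusted p = 4.14e-05), Nqo1 from 64.1 and 81.7 to 27.3 and 31.1 CPM (-1.31 ± 0.16) and Gclm, a subunit of the enzyme that starts glutathione synthesis, from 84.9 and 91.4 to 32.7 and 42 CPM (-1.25 ± 0.15). Gclc, Txnrd1 and Srxn1 fell as well. Slc7a11, which imports cystine and is shared with the ATF4 list, rose by 1.10, and Gstm1 and Mt1 by 1.63 and 0.54. The 4 hr and 32 hr values of Hmox1, Nqo1 and Gclm did not overlap. Hmox1 lost its call with lane as a term and Gstm1 in 2 of the 4 fits without a library.

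In glycolysis 6 of 22 rose and 2 fell (median -0.14). Hk1 rose from 31.6 and 30 to 91.3 and 118 CPM (1.74 ± 0.18, edgeR adjusted p = 7.41e-05) and Pfkp from 116 and 112 to 233 and 207 CPM (0.94 ± 0.15), whereas Ldha overlapped between the times at 337 and 284 and then 351 and 236 CPM (adjusted p = 0.616). Pdk1, which shuts pyruvate out of the mitochondrion, went from 88.4 and 98.9 to 67.5 and 36.5 CPM (-0.99 ± 0.29, adjusted p = 0.0263), a call lost with lane as a term and in 3 of the 4 fits without a library. Of 19 other HIF1 targets 4 rose and none fell. Vegfa, the angiogenic growth factor, rose from 32.5 and 20.1 to 112 and 98.3 CPM (2.02 ± 0.16, adjusted p = 1.12e-05). Ddit4 rose from 157 and 103 to 335 and 223 CPM, a call lost with lane as a term, and Egln3, a HIF hydroxylase, overlapped at 2.97 and 2.84 and then 2.75 and 6.42 CPM. Among nuclear oxidative phosphorylation genes Cox7a1 and Cox6b2, 2 cytochrome oxidase isoforms, rose by 1.98 and 1.10, and Atp5a1 and Atp5b were not called (-0.17 and -0.12). Of the 13 mitochondrially encoded genes, 6 were at 0 counts in all 4 libraries and 1 of the 7 tested, mt-Nd5, was called (1.03 ± 0.34, adjusted p = 0.0407), a call lost without either the 2i library at 32 hr or the 2i+vitC library at 4 hr and with lane as a term.

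Of 30 ribosome biogenesis genes 14 fell and none rose (median -0.40, and -0.43 and -0.38 in the 2 treatments). Heatr1 and Utp20, large factors of small subunit assembly, fell from 496 and 535 to 284 and 298 CPM (-0.83 ± 0.13, edgeR adjusted p = 0.00105) and from 572 and 598 to 335 and 337 CPM (-0.80 ± 0.13). Npm1 (nucleophosmin) fell from 1366 and 1432 to 900 and 821 CPM (-0.70 ± 0.14) and Polr1b, a subunit of RNA polymerase I, from 147 and 157 to 69.6 and 80.8 CPM (-1.01 ± 0.20), without overlap. Ncl (nucleolin) overlapped, at 1351 and 851 and then 940 and 926 CPM, and was not called. Heatr1 and Utp20 were the 2 called with lane as a term, where the median was -0.24. These 2 kept their calls in the 14 alternatives and lost them with the Lars2 share as a covariate (adjusted p = 0.139 and 0.145), while Npm1 was also lost without either 2i+vitC library and Polr1b without the 2i library at 32 hr. Leaving out 1 library gave 3 to 8 falls, with 3 without the 2i+vitC library at 32 hr. Ribosomal proteins, many of which have near-identical pseudogenes that can share their reads, had a median of -0.13, or 0.0035 with lane as a term. Rpl30 fell from 90.6 and 100.1 to 59.3 and 57 CPM, and Rpl39l, a copy of Rpl39 known from testis, rose from 13.8 and 18.9 to 25.7 and 76.4 CPM. Both lost their calls with lane as a term, and in 3 and 1 of the 4 fits without a library.

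In DNA replication 8 of 26 genes fell and in mitosis 7 of 21, with none higher in either (medians -0.20 and -0.25). Pcna, the sliding clamp, went from 141 and 144 to 85.2 and 103 CPM (-0.60 ± 0.15, edgeR adjusted p = 0.012), Rpa2 from 167 and 157 to 90.7 and 86.5 CPM (-0.87 ± 0.15) and Cdc20, an activator of the anaphase-promoting complex, from 299 and 281 to 159 and 164 CPM (-0.84 ± 0.15). Mcm2 and Plk1 were not called (-0.10 and -0.04). With lane as a term 0 of the 26 and 0 of the 21 were called. Among G1 regulators, Ccnd1 fell as given above and Ccne2 (cyclin E2) fell from 73 and 73.4 to 35.4 and 29.6 CPM (-1.17 ± 0.16, adjusted p = 0.000336), while Ccnd2 (cyclin D2) rose from 21.4 and 24.2 to 54.5 and 45.2 CPM (1.12 ± 0.17). The CDK inhibitor gene Cdkn1a (p21) rose by 0.99 and Cdkn1b (p27) by 0.62, and Cdkn1c (p57) fell by 1.06. Cdkn1a lost its call in 3 of the 4 fits without a library and with lane as a term. Replication-dependent histone genes, which have near-identical copies and mostly lack poly(A) tails, had 10 rises and no fall among 48. Hist1h1c, a linker histone gene, rose from 276 and 207 to 662 and 531 CPM (1.31 ± 0.16), whereas Hist1h1a and Hist1h1b overlapped between the times. The median of the histone list was 0.26 here, -0.08 with lane as a term and -0.27 for 24 hr against 4 hr within lane 8.

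Of the 15 DNA methylation genes tested 3 rose and 4 fell. Dnmt3b, the de novo methyltransferase, fell from 295 and 327 to 66.4 and 58.6 CPM (-2.32 ± 0.15, edgeR adjusted p = 2.09e-06), beside Dnmt3l above. Dnmt3a was at 84.3 and 72.8 and then 103 and 97.4 CPM (0.35 ± 0.14, adjusted p = 0.0871). Dnmt1, the maintenance methyltransferase, rose from 335 and 288 to 404 and 459 CPM (0.46 ± 0.15, adjusted p = 0.0395) and Tet1, a 5-methylcytosine dioxygenase, from 141 and 200 to 214 and 262 CPM (0.50 ± 0.16, adjusted p = 0.0348). Uhrf1, which brings DNMT1 to hemimethylated DNA, was at 410 and 401 and then 417 and 463 CPM (adjusted p = 0.552), and Tet2 was not called (0.27). Trim28 (KAP1) went down from 1692 and 1876 to 1077 and 1164 CPM (-0.67 ± 0.18, adjusted p = 0.0152) and Zfp57, which guides it to imprints, up from 67.3 and 63.1 to 122 and 117 CPM (0.87 ± 0.13). Dnmt3b and Dnmt3l kept their calls in the 14 alternatives and with the Lars2 share as a covariate. Zfp57 kept its call in the former and lost it with the latter (adjusted p = 0.241). The 3 rises of the list, Dnmt1, Tet1 and Zfp57, became 1 with lane as a term, with no treatment term, without the 2i library at 32 hr and without the 2i+vitC library at 4 hr. Trim28 lost its call in 3 of the 4 fits without a library and with lane as a term.

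Of 19 H3K9 modifiers 3 rose (Kdm4a, Kdm3b and Wiz) and none fell, and each of these 3 calls was lost with lane as a term and in at least 3 of the 4 fits without a library. Of 29 Polycomb genes 3 rose and 3 fell, 10.3% each way against 13.5% and 11.8% of all genes, among them the paralogs Phc2, up from 18.5 and 18 to 40.1 and 59.3 CPM (1.41 ± 0.20, edgeR adjusted p = 0.000414), and Phc1, down from 108 and 130 to 63.2 and 59 CPM (-0.95 ± 0.16, adjusted p = 0.00117). Ezh2, the main H3K27 methyltransferase, overlapped between the times (0.19). Germ cell genes, many of which are silenced by promoter methylation in ESCs, had 5 rises and 4 falls among 23. Dazl, an RNA-binding protein of germ cells, went from 26.7 and 20.1 to 36.5 and 73.7 CPM (1.07 ± 0.32, adjusted p = 0.0274), and the call was lost with lane as a term and in 3 of the 4 fits without a library. Ddx4 (Vasa) and Mael fell from 16.8 and 19.4 to 9.36 and 6.34 CPM and from 22.4 and 26.7 to 11.7 and 12 CPM, and their calls were lost in 2 and 3 of the 4 fits without a library and with lane as a term. Imprinted genes had 7 rises and 3 falls among 24. Igf2 rose from 80.8 and 67.4 to 264 and 281 CPM (1.86 ± 0.23, edgeR adjusted p = 0.000178). Its receptor gene Igf2r rose from 122 and 125 to 226 and 235 CPM (0.90 ± 0.13, edgeR adjusted p = 0.000593). H19, which lies next to Igf2, rose by 0.86 with an adjusted p of 0.0414, and Ascl2 and Cdkn1c fell by 1.66 and 1.06. H19, Ascl2 and Cdkn1c lost their calls in 3, 3 and 2 of the 4 fits without a library, and H19 and Cdkn1c with lane as a term.

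Among 23 integrins, laminins and collagens 9 rose (39.1%) and 1 fell (4.35%), with a median of 0.35. Col4a5, a basement membrane collagen chain, rose from 7.11 and 7.25 to 28 and 30.3 CPM (2.02 ± 0.20, edgeR adjusted p = 4.81e-05) and Fn1 (fibronectin) from 202 and 215 to 452 and 560 CPM (1.25 ± 0.21), while Itga3, a laminin receptor subunit, fell from 174 and 166 to 61.5 and 60 CPM (-1.49 ± 0.14). Of 16 epithelial genes 7 fell and 1 rose. Epcam fell from 169 and 163 to 81.1 and 82 CPM (-1.02 ± 0.14), Esrp1, a splicing regulator of epithelial cells, from 43.5 and 40.3 to 11.4 and 10.6 CPM (-1.93 ± 0.20) and the claudin gene Cldn6 from 94.4 and 95.6 to 37 and 34 CPM (-1.43 ± 0.21). Dsg2, a desmosomal cadherin, rose from 35.9 and 34.4 to 89.3 and 143 CPM (1.65 ± 0.21). Cdh1 (E-cadherin) overlapped, at 416 and 379 and then 331 and 432 CPM (adjusted p = 0.734). Mesenchymal genes had 3 rises, Fn1, Zeb2 and Mmp14, and 2 falls, Twist1 and S100a4, among 13, and Vim (-0.39) and Cdh2 (0.58) were not called. Fn1, Dsg2, Mmp14 and Twist1 lost their calls with lane as a term, and Twist1 in all 4 fits without a library.

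The intermediate times were set beside these differences. Etv4, Dusp4, Dnmt3b, Dnmt3l and Myl9 were low in both 16 hr libraries already, and Dhcr7, Scd1 and Fads2 were high in them, whereas Crabp1 and Pim1 had their highest values at 32 hr in both treatments. Within lane 7, Lefty1 was higher at 32 hr than at 16 hr by 2.32 (edgeR adjusted p = 0.00014) and Pim1 by 0.81 (adjusted p = 0.034), while Scd1 (-0.11), Dhcr7 (0.12) and Dnmt3b (-0.55) were not called. Within lane 8, the change from 4 to 24 hr was -5.38 for Etv4, -2.08 for Dnmt3b, 2.50 for Scd1 and 1.03 for Sox2, beside -6.04, -2.32, 2.36 and 1.15 from 4 to 32 hr across lanes. Of the 168 called genes that were named by rule, 77 were called with lane as a term, 36 with the Lars2 share as a covariate and 25 in both of these fits. Those 25 include Crabp1, Crabp2, Stra8, Fgfbp3, Pim1, Vegfa, Fads1, Fads2, Gpt2 and Col1a2 among the rises and Alox15, Etv4, Dnmt3l, Dnmt3b, Myl9, Tubb3, Krt8, Itga3 and Esrp1 among the falls.

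**Figure D5:**
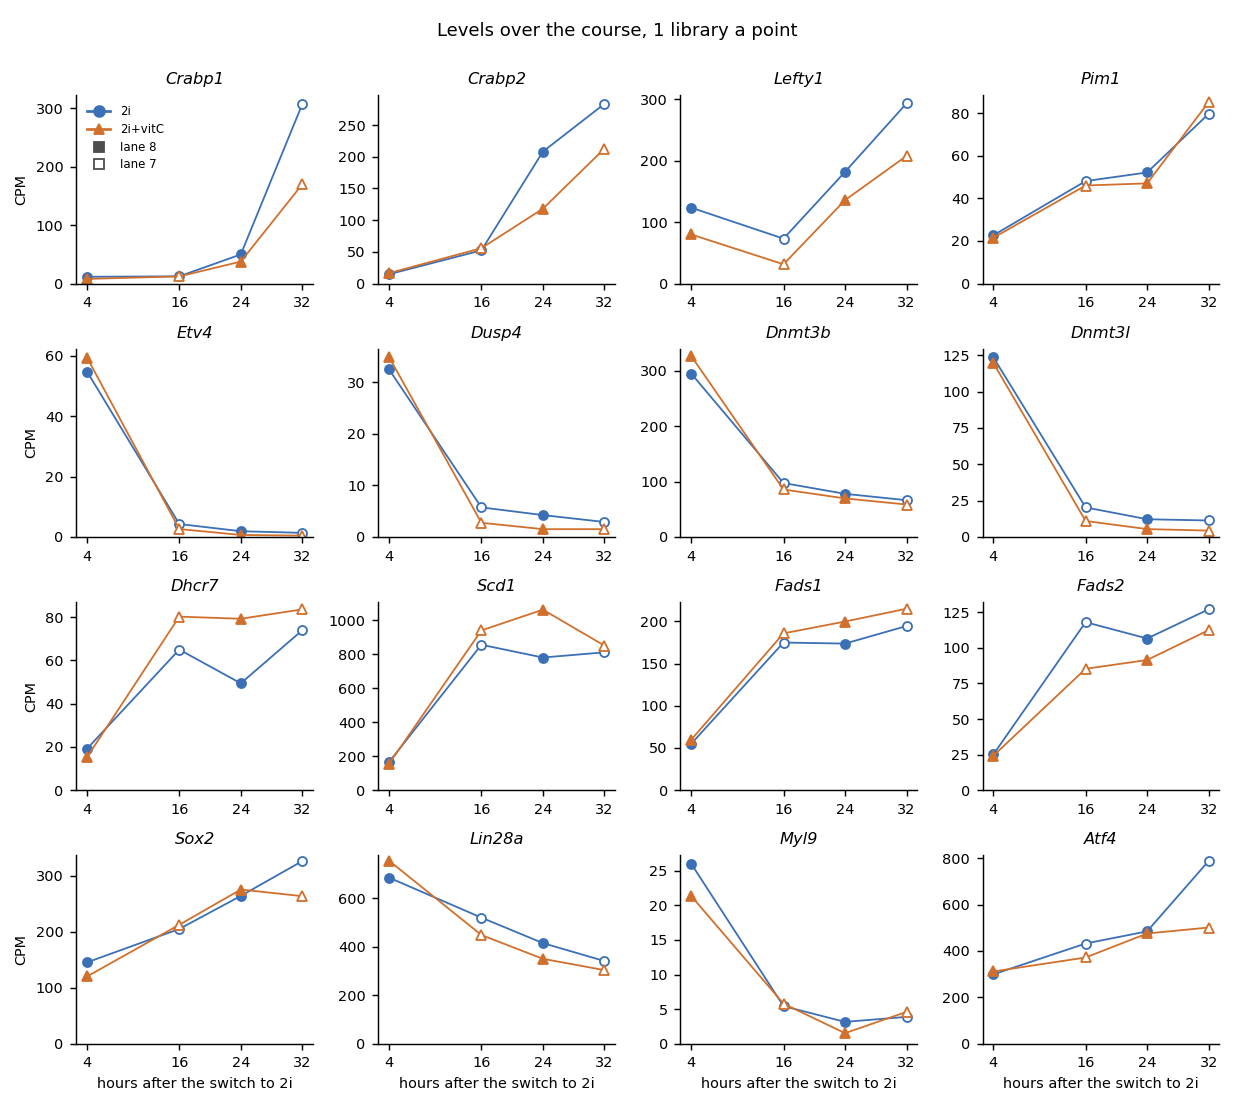
CPM of 16 genes at 4, 16, 24 and 32 hr after the switch to 2i, 1 library a point, in 2i (circles) and 2i+vitC (triangles), with filled symbols for lane 8 and open symbols for lane 7. Crabp1 climbs late, while Crabp2 is above its 4 hr level from 16 hr on. The ETS, phosphatase and de novo methylation genes are low from 16 hr on, and the lipid genes are above their 4 hr level from 16 hr on.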

How the data were processed

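RNA-seq had been done by the study on 8 E14 ESC libraries, 1 for each of 4 times after the switch to 2i and each treatment. The deposited values were whole-number counts per Ensembl gene, which the authors made with GSNAP and HTSeq per the labels. The strand setting of the counting was not given in the sources used here. Of 37263 identifiers, 32604 were paired with a symbol through GENCODE M21. Gene types, lengths, GC content and the gene starts of the printed stretches were also taken from it. The counts were fitted in R 4.3.3 with edgeR 4.0.16 (TMM, quasi-likelihood test, Benjamini-Hochberg adjustment) as time plus treatment over all 8 libraries, with 3 residual degrees of freedom. Ratios of single libraries used a prior count of 2. A count of 3 corresponded to between 0.172 and 0.252 CPM in the 4 libraries, and p-values and intervals cover no spread between cultures. The depth of the whole series ran from 4753528 to 18434932 counts.

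Genes were named by rule. Among called protein-coding genes that averaged 5 CPM or more and moved alike in 2i and 2i+vitC, these were the 10 that rose most and the 10 that fell most. Of each list they were the first 2 members and up to 4 called members that changed most. Members of the lists named beyond this rule, such as Stra6, Tfeb, Mcoln1, Gaa, Dnmt1 and Tet1, were chosen after their values were seen. The comparison, the 40 lists and the tests were chosen with earlier results of these data known, and 11 list members matched no gene. Alternatives were other scalings, filters and covariates, DESeq2 1.42.0, leaving out each library, and a lane term with hours as a straight line. The Lars2 share as a covariate was added after seeing the data. Promoter letters were searched in the 250 bases before each RefSeq start. The test was checked on simulated counts. Some members of the lists are counted but not reported here by name.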

Additional observations from a re-analysis of the deposited data

Results flagged for a closer look

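The 2i pair and the 2i+vitC pair of libraries moved in opposite directions from 4 to 32 hr in 7 lists and 11 of the named genes. The difference was not tested in any of them, since there was 1 library at each time and treatment. As the median log2 ratio of 32 hr over 4 hr, the lists were at 0.039 in 2i and -0.56 in 2i+vitC for the ERK feedback and ETS targets, 0.15 in 2i and -0.10 in 2i+vitC for the formative and primed epiblast genes, -0.11 in 2i and 0.71 in 2i+vitC for primitive endoderm and -0.76 in 2i and 0.29 in 2i+vitC for trophectoderm. The other lists were at 0.10 in 2i and -0.21 in 2i+vitC for glycolysis and lactate, -0.10 in 2i and 0.33 in 2i+vitC for the other HIF1 targets and -0.15 in 2i and 0.27 in 2i+vitC for imprinted genes. The log2 ratio of single genes was -0.31 in 2i and 0.24 in 2i+vitC for Axin2, 0.035 in 2i and -0.33 in 2i+vitC for Nanog, -0.68 in 2i and 1.20 in 2i+vitC for Gata6 and -0.30 in 2i and 0.76 in 2i+vitC for Gata4. It was 0.058 in 2i and -0.27 in 2i+vitC for Ldha, -0.11 in 2i and 1.13 in 2i+vitC for Egln3, -0.0055 in 2i and 0.14 in 2i+vitC for Rpl10a and -0.52 in 2i and 0.12 in 2i+vitC for Ncl. In the remaining genes it was -0.10 in 2i and 0.0091 in 2i+vitC for Plk1, -0.053 in 2i and 0.18 in 2i+vitC for Hist1h1b and -0.33 in 2i and 0.19 in 2i+vitC for Cdh1.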

How the results depend on the processing

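The number of genes called at 32 hr against 4 hr (3785 in all, 2021 higher, 1764 lower) stayed within 1.5 times under 10 of 15 other settings. With lane as a term it was 639 (371 higher, 268 lower), and with the Lars2 share as a covariate, added after seeing the data and with fewer degrees of freedom, it was 159 (95 higher, 64 lower), in which 85 of the original calls had the other sign. Leaving out 1 library gave 1403 to 2885 calls, with 865 to 1608 higher and 538 to 1277 lower. The count was lowest without the 2i library at 32 hr, and was 1548 without the 2i+vitC library at 32 hr and 1780 without the 2i+vitC library at 4 hr. DESeq2 called 3432 genes. The fit on the 4 libraries alone called 5073.

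For 32 hr against 16 hr the count of 87 became 11 with no treatment term, 589 with no CPM filter and 239 with DESeq2, and ran from 2 (without the 2i library at 32 hr) to 140 (without the 2i+vitC library at 4 hr) when a library was left out, with 8 without the 2i+vitC library at 32 hr and 137 without the 2i library at 4 hr. For 24 hr against 4 hr the count of 3061 became 1891 with no treatment term and 1014 to 2566 without a library, lowest without the 2i+vitC library at 4 hr. With the Lars2 share as a covariate edgeR called 0 genes there, with 1416 at an unadjusted p under 0.05, while DESeq2 without that covariate called 2892. The cause of these differences was not tested.

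With the Lars2 share as a covariate 4 named genes changed direction, Tcf7 to -0.070, Ccn1 to 0.26, Pdk1 to 0.37 and Ndufa6 to -0.14, and none of them was called. Of 168 called named genes, 70 kept their call in all 14 alternatives that had been planned, 29 lost it with the lane term alone and 69 lost it in at least 1 fit without a library. A prior count of 0.5 turned no list median and no ratio of a named gene. Libraries of the 2 times were matched by treatment in the main test, and without that term 2756 genes were called. By replicate number no paired analysis was possible because each combination of time and treatment holds 1 library with the same number. Depth limits the genes near the floor of 3 counts.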
